A study of Mus musculus with 23 samples.

Results

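The genes described here encode the enzymes of phase II conjugation in mouse liver: the glutathione S-transferases (Gst), the UDP-glucuronosyltransferases (Ugt) and the cytosolic sulfotransferases (Sult). Members were chosen by name from the count tables, as genes of the Gsta, Gstk, Gstm, Gsto, Gstp, Gstt and Gstz groups, the Ugt1, Ugt2 and Ugt3 groups and the numbered Sult genes, leaving out names ending in -ps, and had to reach 10 counts in at least 5 of 23 libraries. Of 59 names that matched, 45 were members, among 24062 genes in the tables: 20 of 21 Gst, 18 of 20 Ugt and 7 of 18 Sult genes. The rule used no comparison between groups. The 14 genes under the minimum were Sult2a1 to Sult2a6, Sult2b1, Sult3a1, Sult4a1, Sult1c1, Sult6b1, Gstt4, Ugt2a1 and Ugt2a2, each with at most 9 counts in any library. Just inside the limit were Gsto2, with 10 counts or more in 6 libraries, all of them from saline animals, and Sult1e1, in 17 libraries.

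Phase II enzymes attach a polar group to hormones, bile pigments, drugs and reactive lipids, which can then be exported into bile or blood. Glutathione S-transferases use glutathione and act on electrophiles, UDP-glucuronosyltransferases of the endoplasmic reticulum use UDP-glucuronate, and sulfotransferases of the cytosol use the sulfate donor PAPS. The liver is a main site of all 3 reactions, and receptors of foreign compounds and oxidants, among them CAR, PXR, AHR and NRF2, are known to control many of these genes.

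The study compared livers of mice that were wild type (WT) or knockout (KO) for Ehhadh, which encodes the peroxisomal L-bifunctional protein of fatty acid beta-oxidation, after saline or L-AC. The labels give L-AC only as that abbreviation, and L-aminocarnitine, as background, is an inhibitor of mitochondrial long-chain fatty acid oxidation. All mice were of the mixed strain B6/129, and each mouse gave 1 library of polyA RNA. There were 7 WT mice with saline (aged 29 to 45 weeks), 5 KO mice with saline (31 to 44 weeks), 6 WT mice with L-AC (28 to 44 weeks) and 5 KO mice with L-AC (28 to 38 weeks). The labels give no dose, no time after injection and no sex, and the removed part of Ehhadh is not named in them.

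The 8 Ugt1a genes of chr1:88055411-88220002 (mm10) share their last exons and differ in the first one, so each has its own promoter. The 200 bases before the start of 3 of them are shown because their first exons are compared later, with those of Sult1d1 and Gsta3, which fell strongly under L-AC. Sequences are from RefSeq (GRCm38.p6, the assembly of mm10), 5′ to 3′ on the gene's strand, and capitals mark the motif named for each gene.
Ugt1a1 (chr1:88211759-88211958, plus strand): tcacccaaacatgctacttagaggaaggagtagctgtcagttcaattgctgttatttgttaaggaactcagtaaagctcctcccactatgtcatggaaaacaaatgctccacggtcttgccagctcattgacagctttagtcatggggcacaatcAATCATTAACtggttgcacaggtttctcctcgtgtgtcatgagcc
Ugt1a9 (chr1:88070579-88070778, plus strand): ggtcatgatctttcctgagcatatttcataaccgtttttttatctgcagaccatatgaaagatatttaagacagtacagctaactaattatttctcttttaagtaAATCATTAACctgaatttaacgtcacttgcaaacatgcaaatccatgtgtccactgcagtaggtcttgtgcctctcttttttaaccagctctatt
Ugt1a6a (chr1:88134609-88134808, plus strand): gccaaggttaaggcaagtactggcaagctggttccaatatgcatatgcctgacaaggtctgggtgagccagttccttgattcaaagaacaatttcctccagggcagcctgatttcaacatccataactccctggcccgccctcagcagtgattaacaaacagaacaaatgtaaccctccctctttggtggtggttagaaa
Sult1d1 (chr5:87569007-87569206, minus strand): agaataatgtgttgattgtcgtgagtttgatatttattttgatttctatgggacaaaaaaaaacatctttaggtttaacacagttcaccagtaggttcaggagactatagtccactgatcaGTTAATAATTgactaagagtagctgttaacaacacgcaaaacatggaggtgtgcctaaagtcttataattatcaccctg
Gsta3 (chr1:21240385-21240584, plus strand): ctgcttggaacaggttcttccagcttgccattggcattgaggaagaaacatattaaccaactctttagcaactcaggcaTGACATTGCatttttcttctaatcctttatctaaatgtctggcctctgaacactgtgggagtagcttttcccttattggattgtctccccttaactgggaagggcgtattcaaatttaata
In Ugt1a1, Ugt1a9 and Sult1d1 the capitals are a match, on either strand, to most of the palindrome that HNF1 binds (GTTAAT, any base, ATT). In Gsta3 they are a match to TGACNNNGC, the core of the antioxidant response element, and Ugt1a6a had neither. Of 49 promoter windows of 40 members in that table, each from 250 bases before to 50 after the start, the HNF1 letters were in 4 (Ugt1a1, Ugt1a9, Ugt1a10 and Sult1d1), against 0.4% of all 32817 windows. All of these but that of Sult1d1 lie in the same Ugt1a locus. TGACNNNGC was in 3 (Gsta3, Gstm5 and Gstm7), against 12.38%. The letters GCGTG, the core that AHR binds, were in 9 windows of 8 members, against 32.37% of all. TTCNNNGAA, the STAT motif, was in 3 windows against 8.29%, CAAAGTCCA, an HNF4 site, in the window of Sult1b1 against 0.48%, and the direct repeat of the nuclear receptor half-site AGGTCA with 1 free base between in none against 0.04%. A match is a description of letters and not a binding site.

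Gstp1 and Gstp2, neighbours on chromosome 19, are shown because their reads are hard to tell apart. Their coding sequences of 633 bases are 98.1% identical, with 12 differences, and the first 90 bases hold 6 of these, in capitals.
Gstp1: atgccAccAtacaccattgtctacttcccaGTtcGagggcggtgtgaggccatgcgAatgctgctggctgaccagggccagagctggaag
Gstp2: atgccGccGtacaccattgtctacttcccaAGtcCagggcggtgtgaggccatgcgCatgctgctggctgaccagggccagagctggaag
Of all 100-base windows of the Gstp1 transcript, the length of a read, 52.77% also occur in another transcript, and of Gstp2 63.47%. The share was 81.83% for Gsta1 and 35.02% for Gsta2, mostly with the predicted genes Gm3776 and Gm10639, and 23.92% for Gstt3. Ugt2b5 (24.67%) and Ugt2b38 (24.22%) share windows with each other. Values of these genes are therefore uncertain between the copies. No window was shared for Gsta3, Sult1b1, Sult1d1, Sult1e1 or Sult2a7.

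Libraries held 24521896 to 48095959 counted reads. Ehhadh itself was at 634.8 to 1635 CPM (reads per 1000000 counted, scaled by TMM) in WT saline mice and 90.9 to 252.9 in KO saline mice, and at 10260 to 14650 and 1421 to 2144 after L-AC, so KO libraries were lower than WT libraries of the same treatment in every case. Ddx3y of the Y chromosome had 1668 to 3973 reads in each of the 23 libraries and Xist at most 58. In all 56 pairs of replicates the counts differed by more than sampling noise, with a chi-square per degree of freedom of 44.1 or more, so none was counted as a repeat of another.

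Under saline, the 3 families together were a small part of the liver's counted reads. The median share in WT saline mice was 0.38% for the Gst genes, 0.458% for the Ugt genes with the Ugt1a locus counted once, and 0.0373% for the Sult genes. Per kilobase of gene length, the highest levels of the Gst family in WT saline mice were those of Gstp1 (1014 CPM per kb), Gstm1 (650.5), Gsta3 (512) and Gstz1 (259.9), the enzyme that also degrades tyrosine as maleylacetoacetate isomerase. Among the Ugt genes outside the Ugt1a locus, Ugt2b5 (449) and Ugt2b36 (333) were highest per kilobase, followed by Ugt3a2 (204) and Ugt2b1 (191). Among the Sult genes, Sult1a1, a phenol sulfotransferase, was at 165 CPM per kb and Sult1d1 at 53.1, while Sult1e1, the estrogen sulfotransferase, was at 1.03.

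L-AC lowered the conjugation enzymes in WT mice. With edgeR's quasi-likelihood test and Benjamini-Hochberg adjustment over 14196 genes tested, 32 of the 45 members fell (71.1%), none rose and 13 did not pass the test, while 26.7% of all genes tested fell and 26.6% rose. The median log2 fold change of the members was -0.49, against -0.009 for all genes, and 10 members fell by more than 2-fold, the share of all genes being 7.92%. Of the Gst genes 13 of 20 fell, of the Ugt genes 14 of 18 and of the Sult genes 5 of 7, with medians of -0.43, -0.48 and -1.12. In 10 members every L-AC library lay below every saline library, against 12.1% of all genes. The 32 and the 10 that fell by more than 2-fold include Gsto2, which reached 10 counts only in saline libraries, so that the choice of members favoured its fall. Of the 43 members with 100 counts or more in at least 5 libraries 31 fell. The 8 Ugt1a rows are nearly 1 measurement, because a read on their common exons was counted for each of them, and with the locus as 1 row 26 genes fell. The count was 20 with library totals in place of TMM scaling, 20 without the second and 21 without the fifth WT L-AC library. The 7 called Ugt1a rows were among the calls lost each time, with members of small change such as Gstm1 and Gsta2, and the 20 left under library totals were all among the 32. Library totals raised the median of all genes by 0.07 in WT mice, to 0.059. In bulk tissue, fewer cells of a type and less RNA per cell cannot be told apart.

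The markers of the cell types in the libraries moved as follows. Of 5 hepatocyte markers 3 fell and 0 rose in each genotype, with log2 fold changes of -0.43 for Alb and -0.97 for Serpina1a in WT mice. The summed level of these markers was 53753 to 64651 CPM in WT saline mice and 39843 to 49843 in WT L-AC mice. In KO mice it was 57425 to 67714 and 29479 to 51370. Their part in the fall of the members was not tested.

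**Figure D1:**
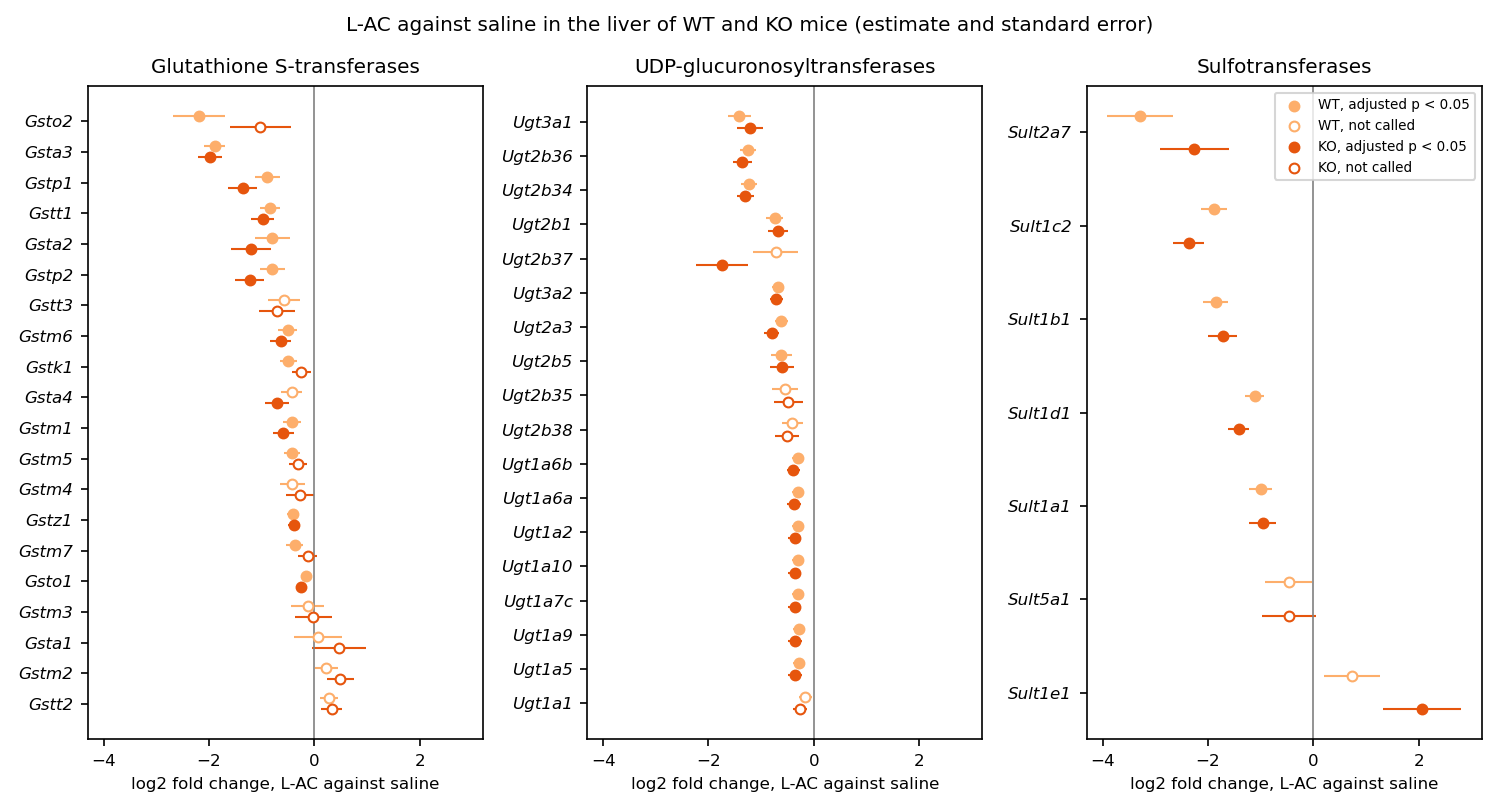
Log2 fold change of L-AC against saline for the 45 members in WT (light) and KO (dark) mice, with its standard error, by family and sorted by the WT value. Filled points passed an adjusted p of 0.05 over all genes, and 32 members in WT and 30 in KO mice are filled to the left of 0.

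Among the glutathione S-transferases, the alpha class gene Gsta3 fell most of those at a high level. Gsta3 (chr1:21240585-21265575) was at 460.5 to 1105 (median 808) CPM in WT saline mice and at 147 to 340.2 (median 210.4) in WT L-AC mice. In KO mice the 5 saline libraries had 765, 864, 877, 1011 and 924 CPM and the 5 L-AC libraries 142, 268, 201, 233 and 282. No L-AC library reached the level of any saline library in either genotype, and the log2 fold change was -1.89 (SE 0.20, adjusted p = 1.02e-07) in WT and -1.98 (SE 0.23, adjusted p = 3.6e-07) in KO mice. Gsta2, another alpha class enzyme, fell by less, with -0.80 (SE 0.33, adjusted p = 0.0445) in WT and -1.20 (SE 0.37, adjusted p = 0.0109) in KO mice. Its WT call was lost when any 1 of 9 libraries was left out, with an adjusted p of up to 0.134. Gsta4, which conjugates the lipid aldehyde 4-hydroxynonenal, was called in KO mice alone, at -0.70 (SE 0.23, adjusted p = 0.0153) against -0.43 (SE 0.20, adjusted p = 0.0783). Gsta1 was at 3.47 to 14.6 CPM in WT saline and 3.75 to 12.9 in WT L-AC mice and was not called in either genotype.

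The pi class pair fell together. Gstp1 was at 394 to 1318 (median 719) CPM in WT saline mice and 248 to 596 (median 395) in WT L-AC mice, and the groups overlapped because the first WT saline library had 394. KO saline libraries had 1049, 468, 835, 1097 and 1064 CPM and KO L-AC libraries 269.7, 348, 352, 484 and 307. Of the KO saline libraries the second lay within the range of the KO L-AC mice. The log2 fold change was -0.89 (SE 0.24, adjusted p = 0.00341) in WT and -1.36 (SE 0.27, adjusted p = 0.000287) in KO mice, and for Gstp2 -0.79 (SE 0.24, adjusted p = 0.00903) and -1.23 (SE 0.28, adjusted p = 0.000913). The ratio of Gstp1 to Gstp2 reads stayed between 4.815 and 6.035 in the 23 libraries, and at this sequence identity the 2 genes cannot be fully told apart.

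The mu class on chromosome 3 fell in part and by little. Of its 7 members 4 fell in WT (Gstm1, Gstm5, Gstm6 and Gstm7) and 2 in KO mice (Gstm1 and Gstm6), and none rose. Gstm1, the most abundant of them, was at 520.3 to 1105 (median 876) CPM in WT saline mice and 457 to 963 (median 577) in WT L-AC mice, where the third library alone (963) was above the saline median. Its log2 fold change was -0.43 (SE 0.17, adjusted p = 0.0389) in WT, a call lost without any 1 of 9 libraries (adjusted p up to 0.1), and -0.59 (SE 0.20, adjusted p = 0.0159) in KO mice. Gstm6 had -0.50 (SE 0.18, adjusted p = 0.0227) and -0.64 (SE 0.20, adjusted p = 0.0128), and its WT call was lost without the second or the fourth WT L-AC library. Gstm5 (-0.42, SE 0.15, adjusted p = 0.0236) and Gstm7 (-0.37, SE 0.16, adjusted p = 0.0498) fell in WT mice, with -0.31 and -0.13 in KO mice, where neither passed. Both WT calls were lost with library totals. That of Gstm7 was also lost with limma-voom, without a filter, with age as a covariate and without many of the single libraries. Gstm3 (-0.12 and -0.02) and Gstm4 (-0.41 and -0.28) were not called in WT or KO mice. Gstm2 was above 0 in both genotypes, with 0.22 (SE 0.22, adjusted p = 0.403) in WT and 0.49 (SE 0.25, adjusted p = 0.108) in KO mice, where it passed as higher without the first KO L-AC library (0.63, adjusted p = 0.0433) and with library totals (0.60, adjusted p = 0.0416). Counting did not use strand, and 15.92% of the exon bases of Gstm5 overlap the gene 4933431E20Rik.

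In the remaining classes, leaving out Gsto2, 4 of 6 members fell in WT and 3 of 6 in KO mice. Gstt1, a theta class enzyme that acts on small halogenated compounds, was at 118 to 223 (median 175) CPM in WT saline mice and 73.9 to 147 (median 93) in WT L-AC mice. In KO mice it was at 166, 286, 166, 166 and 194 under saline and 66.4, 135, 83.3, 117 and 93.7 under L-AC, with no overlap. Its log2 fold change was -0.84 (SE 0.19, adjusted p = 0.000734) in WT and -0.98 (SE 0.21, adjusted p = 0.000593) in KO mice, whereas its neighbour Gstt2 had 0.28 (SE 0.17, adjusted p = 0.185) and 0.33 (SE 0.20, adjusted p = 0.176), on the other side of 0 and not called. The fifth KO L-AC library was low for Gstt2 (53.8 CPM against 137 or more in the other 4), and without it Gstt2 passed as higher in KO (0.53, adjusted p = 0.00285) and WT mice (0.28, adjusted p = 0.038), which share the estimate of spread. Gstt3 had -0.58 (SE 0.30, adjusted p = 0.11) and -0.71 (SE 0.34, adjusted p = 0.0875), not called. Gstz1 was at 468 to 599.5 CPM in WT saline and 337 to 443 in WT L-AC mice, without overlap (-0.41, SE 0.10, adjusted p = 0.00112), and had -0.38 (SE 0.11, adjusted p = 0.00644) in KO mice. Its exons overlap those of Pomt2 in 22.58% of their bases. Gstk1, the kappa class enzyme of mitochondria and peroxisomes, fell in WT mice (-0.49, SE 0.16, adjusted p = 0.0153) and had -0.25 (SE 0.19, adjusted p = 0.283) in KO mice. Gsto1, which reduces dehydroascorbate and methylated arsenic, had small changes that passed in WT (-0.16, SE 0.06, adjusted p = 0.0421) and KO mice (-0.25, SE 0.07, adjusted p = 0.00634). Both calls were lost with library totals, and the WT call also without a filter, with the compared groups alone and without several single libraries. Gsto2 had 1 to 25 reads per library and a log2 fold change of -2.19 in WT mice, given as a description because it became a member through saline libraries alone.

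**Figure D2:**
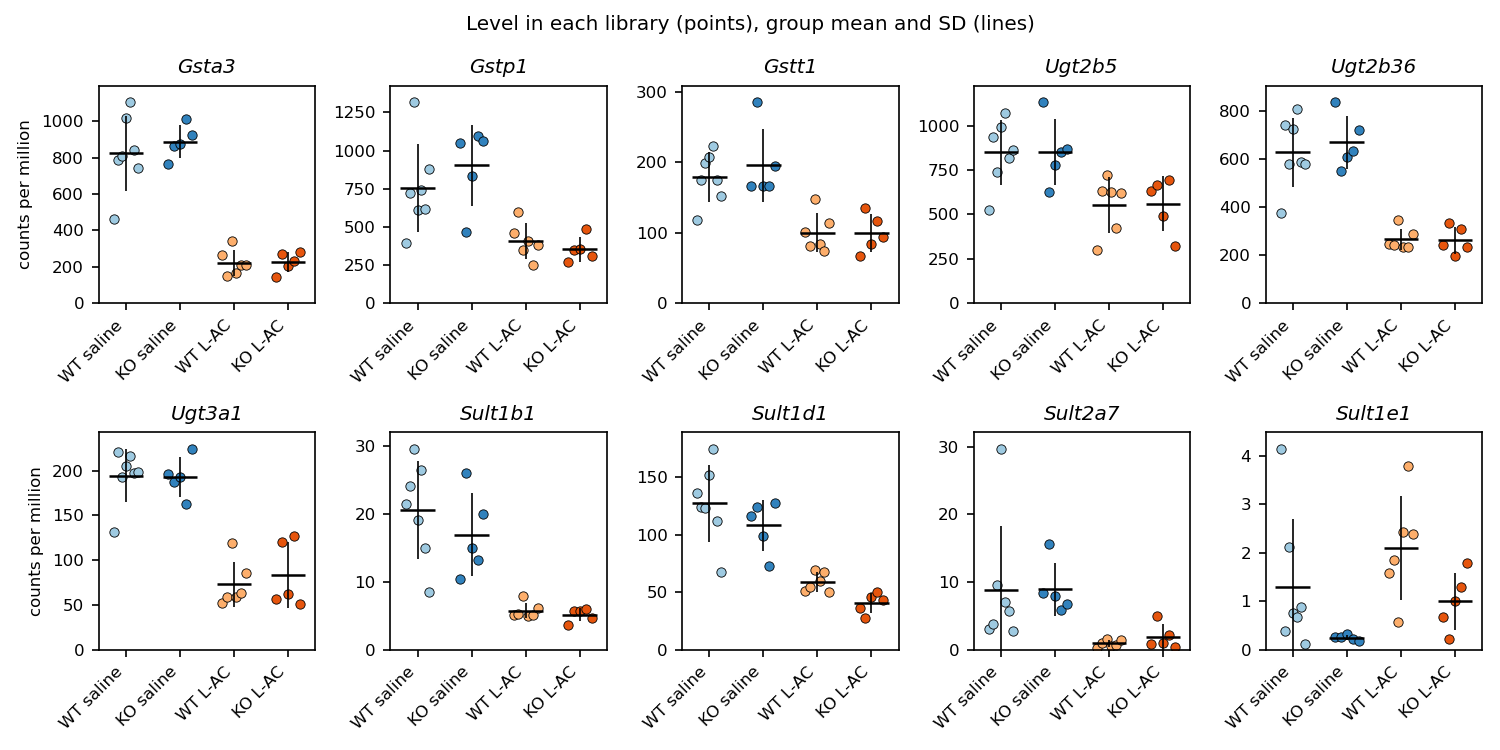
Level of 10 members in CPM (vertical axis, from 0) in each of the 23 libraries, with the mean (horizontal line) and SD (vertical line, not drawn below 0) of each group. Gsta3, Ugt2b36, Ugt3a1 and Sult1b1 have every L-AC library under every saline library of the same genotype, Sult1e1 does not.

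The Ugt2 genes of chromosome 5, which glucuronidate steroids, bile acids and many drugs, fell in part. Of the 7 Ugt2b members 4 fell in WT and 5 in KO mice, and Ugt2a3, which lies among them, fell in both. Ugt2b36 (chr5:87065927-87092555) was at 376 to 807 (median 588) CPM in WT saline mice and 233 to 345 (median 244) in WT L-AC mice. In KO mice the saline libraries had 836, 551, 608, 632 and 718 CPM and the L-AC libraries 239.8, 332, 197, 307 and 232. The highest L-AC library stayed under the lowest saline library in both genotypes, and the log2 fold change was -1.25 (SE 0.16, adjusted p = 1.09e-06) in WT and -1.36 (SE 0.18, adjusted p = 2.28e-06) in KO mice. Ugt2b34, the first gene of the cluster, was at 294 to 494 CPM in WT saline and 124 to 244 in WT L-AC mice (-1.23, SE 0.15, adjusted p = 5.39e-07). In KO mice it was at 358 to 478 under saline and 127 to 206 under L-AC (-1.30, SE 0.17, adjusted p = 1.55e-06), and again the groups were apart.

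Smaller changes were found in the other genes of the cluster. Ugt2b1 had -0.75 (SE 0.17, adjusted p = 0.000776) in WT and -0.69 (SE 0.19, adjusted p = 0.00471) in KO mice, and Ugt2a3 -0.62 (SE 0.12, adjusted p = 0.000199) and -0.80 (SE 0.14, adjusted p = 5.7e-05). Ugt2b5, the most abundant Ugt2 gene, was at 526 to 1074 (median 865) CPM in WT saline mice and 300.3 to 720.4 (median 625) in WT L-AC mice, with overlap, and had -0.62 (SE 0.20, adjusted p = 0.0143) in WT and -0.60 (SE 0.23, adjusted p = 0.0341) in KO mice. The KO call was lost without any 1 of 5 libraries, at an adjusted p of up to 0.105. Ugt2b35 and Ugt2b38 had -0.55 and -0.41 in WT and -0.49 and -0.51 in KO mice and were not called. Ugt2b37 was the lowest of the cluster, at 5.59 to 9.86 CPM in WT saline and 2.08 to 5.73 in WT L-AC mice. Its KO saline libraries had 7.05, 3.52, 7.17, 49.4 and 5.75 CPM, so that the fourth stood far above the others. The KO call (-1.74, SE 0.49, adjusted p = 0.00586) rested on that library: without it the log2 fold change was -0.43 (adjusted p = 0.16), and the WT value of -0.72 then passed (adjusted p = 0.005).

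Both Ugt3a genes of chromosome 15, whose enzymes use UDP-N-acetylglucosamine (Ugt3a1) or UDP-glucose (Ugt3a2) in place of UDP-glucuronate, fell in both genotypes without overlap. Ugt3a1 was at 132 to 221 (median 198) CPM in WT saline mice and 52 to 119 (median 61.3) in WT L-AC mice. KO saline libraries had 196, 188, 193, 162 and 225 CPM and KO L-AC libraries 56.4, 119.9, 62.5, 127 and 51.4. The second and the fourth KO L-AC libraries were nearer to the saline range than the other 3, and the log2 fold change was -1.41 (SE 0.22, adjusted p = 1.1e-05) in WT and -1.21 (SE 0.24, adjusted p = 0.000279) in KO mice. Ugt3a2 fell by less but with a smaller spread, at 388 to 507 CPM in WT saline and 226 to 354 in WT L-AC mice (-0.68, SE 0.11, adjusted p = 1.93e-05) and with -0.71 (SE 0.12, adjusted p = 5.42e-05) in KO mice.

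The Ugt1a locus includes Ugt1a1, which conjugates bilirubin, and Ugt1a6a, which conjugates simple phenols. Of the 8 rows 7 fell in both genotypes, by 0.28 to 0.30 on the log2 scale in WT and 0.35 to 0.39 in KO mice. Ugt1a1 was not called, with -0.16 (SE 0.12, adjusted p = 0.253) in WT and -0.25 (SE 0.13, adjusted p = 0.12) in KO mice. In WT mice all 7 calls were lost with library totals. They were also all lost without WT L-AC library 1, 2 or 5 or WT saline library 4 or 5. Of these WT calls 5 were lost without a filter, and without WT L-AC library 4 or WT saline library 2 or 7. In KO mice all 7 calls were lost with library totals and without the fifth KO L-AC library, and 5 were lost without the first KO L-AC, the second KO saline or the fifth KO saline library. Of the exon bases of these genes 57.22% to 72.24% are common to others, so the rows do not separate the first exons. All rows but Ugt1a6b hold the same 2316 shared bases, so the lowest of these 7 counts in a library was taken as the reads on the shared exons, and the rest of each count as reads on that gene's own exons. The lowest row was Ugt1a2 in 19 libraries, Ugt1a10 in 3 and Ugt1a7c in 1, and these genes had at most 29 own-exon reads in any library, against 5400 to 15039 for Ugt1a1.

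The shared exons fell, and the own exons of Ugt1a1 did not follow them. Reads on the shared exons were at 643 to 979 CPM in WT saline mice and 571 to 805 in WT L-AC mice, with a log2 fold change of -0.29 (SE 0.11, adjusted p = 0.0351), and -0.37 (SE 0.13, adjusted p = 0.023) in KO mice. The shared-exon count was nearly that of the Ugt1a2 row. The calls of that row were lost with library totals and without some single libraries in both genotypes. Reads on the own exons of Ugt1a1 were at 233 ± 53.4 CPM in WT saline and 272 ± 49.5 in WT L-AC mice (mean ± SD, n = 7 and 6), with 0.22 (SE 0.15, adjusted p = 0.213) in WT and 0.08 (SE 0.17, adjusted p = 0.714) in KO mice. Own-exon reads of Ugt1a6a had -0.38 (SE 0.18, adjusted p = 0.0789) in WT and -0.64 (SE 0.20, adjusted p = 0.0124) in KO mice.

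As a percentage of the shared-exon reads of the same library, Ugt1a1 own-exon reads were at 30.7, 29.1, 21.7, 33.5, 27.2, 24.8 and 29.7 in the 7 WT saline libraries and at 36.9, 37.6, 36, 48.4, 42.1 and 40.9 in the 6 WT L-AC libraries. Every L-AC library was above every saline library, and the mean log2 share was 0.53 higher (exact permutation test over 1716 splits, two-sided, p = 0.00117, adjusted over 8 tests 0.00936). In KO mice the values were 28, 28.5, 29, 25.9 and 31.7 under saline and 37.8, 30.9, 46.7, 39.8 and 41.3 under L-AC. There the groups overlapped by 1 library on each side and the log2 share was 0.45 higher (exact permutation test over 252 splits, p = 0.0159, adjusted 0.0636), which did not pass the correction. The share of Ugt1a6a differed by -0.05 in WT (exact p = 0.712) and -0.28 in KO mice (exact p = 0.246), and those of Ugt1a5 and of Ugt1a9, which like Ugt1a1 has the HNF1 letters in its promoter stretch, did not pass either (adjusted exact p from 0.152 to 0.786). Per kilobase, the own exons of the 7 genes together were at 93.7% of the shared exons in WT saline and 95.2% in KO saline mice, and at 126.5% and 122.9% after L-AC, most of it from Ugt1a1. Evenly covered transcripts that hold all 2316 shared bases would give less than 100%. A read across the border of own and shared exons went to the shared count, and the own exons of Ugt1a6b were not in the sum. The values after L-AC were above 100%, so reads were not even over the annotated bases there, while those under saline do not settle it. The row of Ugt1a6b holds only 1312 shared bases, and transcripts that end before the last shared bases would also raise the percentage. Uneven reads and earlier ends cannot be told apart here. The part of uneven reads or of earlier ends in the share of Ugt1a1 was not tested.

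**Figure D3:**
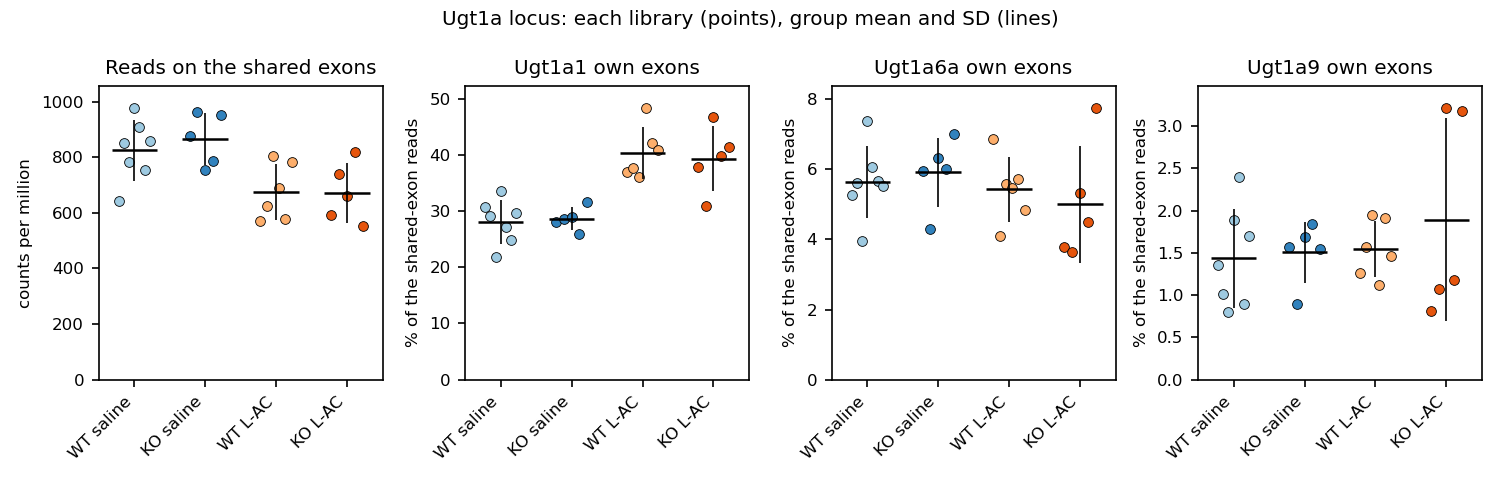
Ugt1a locus in the 23 libraries: reads on the exons common to 7 genes in CPM (first panel), and own-exon reads of Ugt1a1, Ugt1a6a and Ugt1a9 as a percentage of them. Points are libraries, lines the mean and SD, and in WT mice the Ugt1a1 share after L-AC (lowest 36%) does not overlap that under saline (highest 33.5%).

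Of the 3 families the sulfotransferases had the lowest median, -1.12 in WT and -1.41 in KO mice on the log2 scale. Sult2a7, of the family that sulfates bile acids and steroids, was at 2.75 to 29.7 (median 5.64) CPM in WT saline mice and 0.194 to 1.49 (median 0.843) in WT L-AC mice. KO saline libraries had 8.34, 15.6, 7.92, 5.83 and 6.8 CPM and KO L-AC libraries 0.784, 5.02, 1, 2.22 and 0.34. No L-AC library reached the saline range of its genotype, and the log2 fold change was -3.29 (SE 0.62, adjusted p = 0.000135) in WT and -2.26 (SE 0.66, adjusted p = 0.00717) in KO mice. The fourth WT saline library alone had 29.7 CPM, and without it the WT value was -2.57, still called. Sult1c2 was a low gene that fell without overlap, at 1.76 to 4.95 CPM in WT saline and 0.473 to 1.62 in WT L-AC mice (-1.88, SE 0.25, adjusted p = 2.16e-06). In KO mice it was at 3.65 to 5.99 under saline and 0.449 to 1.28 under L-AC (-2.37, SE 0.29, adjusted p = 8.43e-07).

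Sult1b1, Sult1d1 and Sult1e1 are neighbours on the minus strand of chromosome 5, next to the Ugt2 cluster. Sult1b1 and Sult1d1 fell in both genotypes, and Sult1e1 did not. Sult1b1, which sulfates thyroid hormones, was at 8.47 to 29.7 (median 21.5) CPM in WT saline mice and 4.98 to 7.84 (median 5.15) in WT L-AC mice. In KO mice it was at 10.4, 26, 15.1, 13.2 and 20.1 under saline and 3.62, 5.74, 5.7, 5.93 and 4.66 under L-AC. The groups did not overlap in either genotype, and the log2 fold change was -1.85 (SE 0.24, adjusted p = 1.4e-06) in WT and -1.72 (SE 0.27, adjusted p = 1.98e-05) in KO mice. Sult1d1, a catecholamine sulfotransferase, was at 67.6 to 175 (median 125) CPM in WT saline and 50.2 to 69.4 (median 57.1) in WT L-AC mice, where 1 saline library of 67.6 lay in the L-AC range (-1.12, SE 0.18, adjusted p = 1.8e-05). In KO mice it was at 117, 124, 98.5, 73.2 and 128 under saline and 36.2, 27.2, 45.8, 50.2 and 43.3 under L-AC, without overlap (-1.41, SE 0.20, adjusted p = 5.91e-06). Of the 3 neighbours Sult1d1 alone has the HNF1 letters in its window.

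Sult1e1, which inactivates estrogens, was the 1 member called higher, and that in KO mice. WT saline libraries had 4.15, 0.388, 2.12, 0.754, 0.665, 0.888 and 0.104 CPM and WT L-AC libraries 1.58, 1.84, 0.566, 2.42, 3.8 and 2.38. KO saline libraries had 0.251, 0.252, 0.312, 0.218 and 0.172 CPM, 6 to 12 reads each, and KO L-AC libraries 0.682, 0.227, 1, 1.29 and 1.79. The second KO L-AC library lay in the KO saline range and the other 4 above it, while in WT mice the first saline library was above every L-AC library. The log2 fold change was 0.73 (SE 0.53, adjusted p = 0.251) in WT and 2.06 (SE 0.73, adjusted p = 0.024) in KO mice, and the difference between genotypes was not called (interaction 1.33, SE 0.91, adjusted p = 1.0). The KO call was lost without the fifth KO saline library (adjusted p = 0.0544), without the fifth KO L-AC library (0.0749) and with limma-voom (0.0985), while without the first WT saline library the WT value of 1.39 passed (adjusted p = 0.0186).

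Sult1a1 and Sult5a1 complete the family. Sult1a1 was at 139 to 314 (median 212) CPM in WT saline mice and 86.2 to 144 (median 111) in WT L-AC mice, with -1.0 (SE 0.22, adjusted p = 0.000649) in WT and -0.96 (SE 0.25, adjusted p = 0.00296) in KO mice, where the groups did not overlap. Sult5a1 varied within each group more than between them, from 6.98 to 28.5 CPM in WT saline mice and 5.05 to 14.5 in WT L-AC mice, and was not called (-0.47, SE 0.44, adjusted p = 0.384).

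In KO mice L-AC had the same sign on each of the 45 members as in WT mice. Of the 45 members 30 fell (66.7%), 1 rose and 14 did not pass, while 23.6% of all genes fell and 25.2% rose. The median log2 fold change was -0.59, against -0.005 for all genes, and 12 members fell by more than 2-fold (8.3% of all genes). By family 10 of 20 Gst, 15 of 18 Ugt and 5 of 7 Sult genes fell, and 14 members had every L-AC library under every saline library (15.5% of all genes). With the Ugt1a locus as 1 row 24 genes fell, and of the 43 members with 100 counts or more 30 did. Library totals raised the median of all genes to 0.106 and left 21 lower. Members that fell in both genotypes included Gsta3, Gstp1, Gstp2, Gstt1, Gstz1, Ugt2b34, Ugt2b36, both Ugt3a genes and 5 Sult genes. Apart from Gsto2, Gstm5, Gstm7 and Gstk1 fell in WT mice alone and Ugt2b37 and Gsta4 in KO mice alone, and for none of them was the difference between genotypes called. The median share of counted reads went from 0.406% to 0.247% for Gst genes in KO mice, and from 0.0274% to 0.0163% for Sult genes.

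The loss of Ehhadh moved no member past the threshold. Under saline, edgeR called 0 of 45 members in KO against WT mice, with 0.0141% of all genes called in either direction, and DESeq2 and limma-voom also called 0. Below an unadjusted 0.05 were 2 members, against 1.86% of all genes: Sult1e1 (log2 fold change -2.39, SE 0.69, adjusted p = 1.0) and Ugt2b37 (0.99, SE 0.43, adjusted p = 1.0). The members' log2 fold changes ran from -2.39 to 0.99 with a median of 0.05. Gsta3 had 0.11 (SE 0.20) and Ugt2b36 0.09 (SE 0.16).

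Under L-AC, edgeR, DESeq2 and limma-voom again called 0 members, with 0.0141% of all genes called by edgeR. At an unadjusted p under 0.05 there were 2 members, against 4.53% of all genes. Sult1d1 was at 36.2, 27.2, 45.8, 50.2 and 43.3 CPM in the KO and 50.7, 54.3, 69.4, 59.9, 67.9 and 50.2 in the WT L-AC libraries. The groups met at 50.2 CPM without overlapping, as 0.24% of all genes did with KO lower, and the log2 fold change was -0.53 (SE 0.19, adjusted p = 0.878). Gsta1 had 1.03 (SE 0.49, adjusted p = 1.0), with 3.24, 7.67, 44.1, 10.4 and 15.9 CPM in the KO L-AC libraries, where the third stood above the rest. The interaction of genotype and L-AC called 0 members by edgeR, DESeq2 and limma-voom and 0.0% of all genes by edgeR, and 0 members had an unadjusted p under 0.05 (2.25% of all genes).

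Libraries of a group differed from each other across many members at a time. Counting the Ugt1a locus once (38 genes), the first WT saline library was the lowest of its group for 18 genes and the highest for 5, among them Sult1e1 and Gsto2. In the WT L-AC group the third library was the highest for 23 genes and in the KO L-AC group the first was the lowest for 17. Gsta3, for example, was at 340.2 CPM in the third WT L-AC library and at 147 in the second. These orders describe single mice, and the labels give no batch, date or litter to set beside them.

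**Figure D4:**
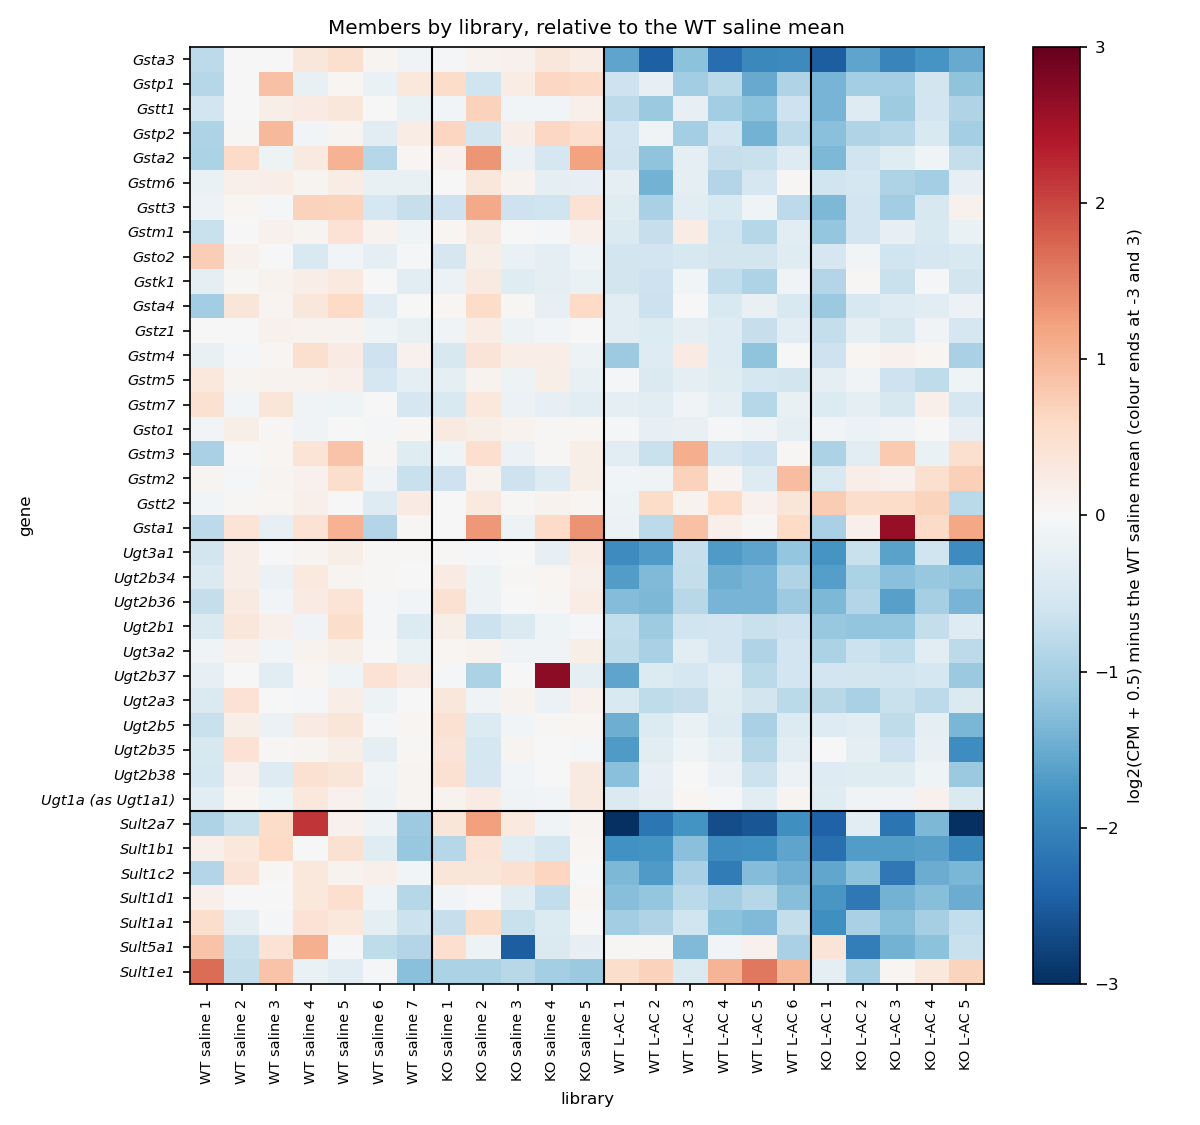
Log2(CPM + 0.5) of 38 genes (rows, by family, with Ugt1a1 for its locus) in the 23 libraries (columns, by group), minus the mean of the WT saline libraries. Blue is lower and red higher, with colours ending at -3 and 3, and the L-AC columns are blue for most rows, while Gstt2, Gstm2, Gsta1 and Sult1e1 hold red cells.

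Lists of related genes are given here by their counts, to be set against all genes tested, of which 26.6% rose and 26.7% fell in WT and 25.2% and 23.6% in KO mice. The lists of the co-substrates hold genes that supply them together with genes that use, recycle or remove them. These genes moved in both directions, and in WT mice more fell than rose in each list. For UDP-glucuronate, 2 rose and 4 fell of 9 tested in WT, with 2 and 2 in KO mice. Ugdh, which makes it, rose (0.44 in WT and 0.71 in KO mice), and Ugp2, which makes UDP-glucose, fell in WT mice (-0.82, adjusted p = 0.00322). For sulfate, 3 rose and 6 fell of 12 tested in WT, with 3 and 6 in KO mice, with Papss1, a PAPS synthase, at -0.86 and -0.77 and the sulfate importer Slc26a1 at -1.22 and -1.35. For glutathione, 3 rose and 7 fell of 16 tested in WT, with 4 and 6 in KO mice. In WT mice the synthesis genes Gclc (-1.55), Gclm (-0.40) and Cth (-1.77) fell, while the synthesis gene Gss was not called (-0.10, adjusted p = 0.275). Chac2 (-2.30) fell as well, and Oplah (1.15) and the reductase Gsr (0.92) rose.

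Conjugating enzymes outside the 3 families differed by list. Of methyl-, acetyl- and amino acid transferases, listed with the acyl-CoA synthetases Acsm1, Acsm2, Acsm3 and Acsm5 that activate acids for amino acid conjugation, 1 rose and 12 fell of 17 tested in WT, with 2 and 11 in KO mice. In WT mice Acsm5 was at -1.74, the histamine methyltransferase Hnmt at -1.53 and the nicotinamide methyltransferase Nnmt, which rose, at 0.89. A further list held Mgst1, Mgst3, Hpgds and Ltc4s together with Gstcd, Gdap2, Clic1 and Clic4, which are listed by relation and not as proven transferases. Of these, 3 rose and 1 fell of 8 tested in WT, with 2 and 1 in KO mice. The genes that rose in WT mice were Gstcd (0.69), Gdap2 (0.23) and Clic4 (0.435). Mgst3 fell with -0.75, and Mgst1 was not called (0.08, adjusted p = 0.561). Of transporters of conjugates and organic anions, 3 rose and 7 fell of 17 tested in WT, with 2 and 7 in KO mice, led by the bile salt pump Abcb11 at -2.44 and the uptake carrier Slco1b2 at -2.30.

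Genes tied to the control of these enzymes also went both ways. Of the xenobiotic receptors and partners, 4 rose and 5 fell of 14 tested in WT, with 3 and 6 in KO mice. In WT mice Ahr was at -1.25, Nr1i3, which encodes CAR, at -0.77 and Por at 1.77. Nr1i2, which encodes PXR, rose in WT mice (0.35, adjusted p = 0.0325) and was not called in KO mice (0.32, adjusted p = 0.0942). Nfe2l2, which encodes NRF2, was not called in WT (-0.50, adjusted p = 0.0667) or KO mice (-0.41, adjusted p = 0.198). Of known target genes of CAR, PXR and AHR, which are Cyp genes with Tiparp and Nqo1 added, 2 rose and 5 fell of 16 tested in WT, with 1 and 7 in KO mice. The genes that rose in WT mice were Cyp2b10 (3.97) and Tiparp (0.83), and Cyp2c54 fell (-1.65). Of NRF2 targets outside Gst and Ugt, 9 rose and 4 fell of 18 tested in WT, with 9 and 5 in KO mice, from Srxn1 at 2.07 to Osgin1 at -2.59. Of male-biased liver genes, 1 rose and 10 fell of 15 tested in WT, with 1 and 9 in KO mice, of female-biased genes, 4 rose and 4 fell of 16 tested in WT, with 2 and 2 in KO mice, and of the growth hormone axis, 0 rose and 7 fell of 11 tested in WT, with 0 and 5 in KO mice.

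Markers of zones and of other cells stood beside these results as follows. Of pericentral hepatocyte markers, 0 rose and 5 fell of 7 tested in WT, with 0 and 3 in KO mice, and of periportal ones, 1 rose and 5 fell of 6 tested in WT, with 1 and 4 in KO mice, where Hsd17b13 rose in both genotypes. Of cholangiocyte markers, 0 rose and 1 fell of 5 tested in WT, with 0 and 1 in KO mice. Of Kupffer cell markers, 1 rose and 4 fell of 7 tested in WT, with 1 and 3 in KO mice, of endothelial markers, 0 rose and 1 fell of 7 tested in WT, with 0 and 2 in KO mice, of stellate markers, 3 rose and 1 fell of 7 tested in WT, with 2 and 1 in KO mice, and of lymphocyte markers, 1 rose and 3 fell of 4 tested in WT, with 1 and 1 in KO mice. The summed levels of each of these 4 non-parenchymal lists and of the cholangiocyte list overlapped between saline and L-AC mice in both genotypes, and no marker was at 0 in every library. Those of both zone lists did not overlap. Pericentral sums were 10543 to 13611 CPM in WT saline and 6554 to 8365 in WT L-AC mice, and 10122 to 13081 and 3492 to 8493 in KO mice. Periportal sums were 2089 to 2669 and 1423 to 1832 in WT, and 2343 to 3060 and 1569 to 2282 in KO mice. The part of zones and cell types in the fall of the members was not tested.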

How the data were processed

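PolyA RNA was sequenced as 100-nucleotide single-end reads, per the labels' protocols. The deposited files hold raw counts per gene, which the authors made with STAR 2.4.0 on mm10 (GRCm38), per the submitters' processing notes, and featureCounts 1.4.4, per the file headers. These headers show that strand was ignored, primary alignments were kept, and a read on exons of several genes was counted in each.

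After filterByExpr (minimum count 10, total 15), 14196 genes were fitted in edgeR 4.0.16 (R 4.3.3) by quasi-likelihood with TMM scaling and a mean for each of the 4 groups. Adjusted p-values are Benjamini-Hochberg over these genes, called under 0.05, and SE is that of the log2 fold change. The fit was tested on simulated counts. Alternatives were DESeq2 1.42.0, its size factors, limma-voom (limma 3.58.1), library totals, other filters, age as a covariate, the compared groups alone, and each of 23 libraries left out.

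Named members were, per family, up to 8 called with the largest WT change at 1 CPM or more, the 4 highest per length, and those with the smallest p in other contrasts or at the limit of the rule. From each of the 20 lists (232 symbols) up to 4 called genes were taken by p. Others, such as Gstt2, Gstm2, Gclc, Gclm, Gss, Nnmt, Nr1i2, Nr1i3 and Nfe2l2, were chosen after their values were seen. Members and lists were chosen with earlier results of these data known. Ugt1a own-exon reads and their exact permutation tests were added after the data were seen.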

Additional observations from a re-analysis of the deposited data

Results flagged for a closer look

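Among 116 groups of values, 29 named members in the 4 groups, 11 single values stood apart from the rest of their group by Dixon's criterion, where chance gives about 1 in 20 groups. Some libraries held more than 1 of these values. In CPM, the second KO saline library was high for Gstt1 (285.7, others 165.8 to 194.3), Gstk1 (143.0, others 91.9 to 103.7) and Sult2a7 (15.6, others 5.83 to 8.34). The fourth KO saline library was high for Ugt2b37 (49.4, others 3.52 to 7.17). The first WT saline library was low for Ugt3a1 (131.7, others 192.4 to 220.5) and high for Gsto2 (0.844, others 0.0870 to 0.388). The fourth WT saline library was high for Sult2a7 (29.7, others 2.75 to 9.60). Among L-AC mice, Gstz1 was low in the fifth WT library (336.6, others 407.9 to 443.2), Ugt2b1 low in the second WT library (225.0, others 282.9 to 316.3), Ugt2b37 low in the fifth KO library (3.06, others 4.63 to 4.86) and Gsto2 high in the second KO library (0.264, others 0.0345 to 0.0926).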

How the results depend on the processing

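In WT mice 32 members fell, 20 with library totals and 20 to 33 with a library left out, and 24 to 33 under the other settings. None rose, against 1 with limma-voom (Sult1e1) and 0 to 1 with a library left out. In KO mice 30 fell, 21 with library totals and 23 to 32 with a library left out. There 1 rose, against 2 with library totals, 0 with limma-voom, 0 when fitted without the other genotype, 0 among members with 100 counts, and 0 to 2 with a library left out. Counts between genotypes and in the interaction were 0 to 0 with a library left out and 0 elsewhere. Of the named results, no setting reversed a called direction. Leaving out libraries kept 1415 calls or non-calls of single genes, ended 41 and added 4. DESeq2 kept 64 of 64, library totals 57 with 7 lost, and limma-voom 60 with 3 lost and 1 added. Ugt2b37 in KO mice was lost with limma-voom (adjusted p = 0.0764). No paired analysis was possible because replicate numbers only follow accession order. Depth limits Gsto2, with at most 25 reads in a library, and Sult1e1 in KO saline mice.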
